A study of Homo sapiens with 17 samples.

Results

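The transcripts described here are 10 host genes of small nucleolar RNAs (snoRNAs), namely GAS5, SNHG1, SNHG5, SNHG6, SNHG8, SNHG12, SNHG15, SNHG16, ZFAS1 and EPB41L4A-AS1. They were taken by name from the 60662 genes of the count table, with earlier results of these data known. Each was counted in all 17 RNA-seq libraries of Ishikawa cells, a human endometrial adenocarcinoma line used as a model of the endometrial epithelium, and all 10 passed the filter on low counts in every comparison. The cells were kept in medium with charcoal-stripped serum and, except for the controls, treated for 24 h. The control group (3 libraries) received medium alone. A group labelled Nap only (2 libraries) received a vehicle named Nap, which the labels do not explain. The vehicle control (3 libraries) is titled Nap with ethanol and its treatment is given as 70% ethanol. The P4 group (3 libraries) received Nap and progesterone. For the remaining 6 libraries, treated with recombinant human PSAT1 (phosphoserine aminotransferase, an enzyme of serine synthesis) with or without P4, the labels contradict each other. The libraries whose columns are named R_PSAT1_P4 have titles and treatments naming PSAT1 alone, and those whose columns are named R_PSAT1 have titles and treatments naming PSAT1 with P4. They are therefore given by column name only, as the R_PSAT1 columns (3 libraries) and the R_PSAT1_P4 columns (3 libraries), and no P4 treatment is assigned to either. Ethanol is named for the vehicle control and not for the P4 group, so an effect of P4 and one of ethanol cannot be told apart between those groups.

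A snoRNA host gene is transcribed by RNA polymerase II, and its introns carry snoRNAs that are released after splicing. Box C/D snoRNAs guide ribose methylation of ribosomal RNA and box H/ACA snoRNAs guide its pseudouridylation. The spliced exons of a non-coding host hold only short reading frames, are engaged by ribosomes and are broken down by nonsense-mediated decay (NMD), so host RNA is known to accumulate when translation stops. Many hosts start with a terminal oligopyrimidine (TOP) tract, a C followed by a run of pyrimidines, which they share with the mRNAs of ribosomal proteins and elongation factors. Of the 10, GAS5, SNHG1, SNHG5, SNHG6, SNHG16 and ZFAS1 carry box C/D snoRNAs, SNHG8, SNHG15 and EPB41L4A-AS1 carry H/ACA snoRNAs, and SNHG12 carries both kinds.

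The TOP-like start was looked for in the annotated transcripts (GENCODE 29, GRCh38) as a C followed by at least 4 pyrimidines. It was found in 23 of 136 transcripts of the 10 genes (16.9%) and in at least 1 transcript of 8 genes. These were 6 of 29 transcripts of GAS5, 3 of 23 of SNHG5, 1 of 25 of SNHG1, 1 of 5 of SNHG8 and 3 of 5 of SNHG6. For SNHG12 they were 4 of 17, for SNHG16 2 of 8 and for ZFAS1 3 of 10. Among all 206694 annotated transcripts, 4979 (2.41%) had it, as did at least 1 transcript of 3865 of 58721 genes (6.58%). The share by gene was not matched for the number of annotated transcripts, of which the 10 genes have more per gene. No annotated transcript of SNHG15 or EPB41L4A-AS1 had it. The first 29 bases of 1 such transcript each are shown for 6 hosts, 3 that were called higher with P4 than in both the vehicle control and the control and also SNHG5, SNHG12 and SNHG16, so that the starts can be read beside the values that follow. They are written 5′ to 3′, with the initial C and its pyrimidine run in capitals.
GAS5: CTTTTCgaggtaggagtcgactcctgtga
SNHG8: CTTTCacattcgggaagcgtcgggattag
ZFAS1: CTTTCgcgtctgcggtgcccggagtgtgg
SNHG5: CTTTTacgtcggccttcgcgagcgtctgg
SNHG16: CTTTTCgaggtcggccgcgtggctggaag
SNHG12: CCTTTCTCCCCgccgcattcccggtgtcg
GAS5 and SNHG16 have the same capitals here. The stretch of GAS5 lies at chr1:173867961-173867989 (minus strand), that of SNHG8 at chr4:118278758-118278786 (plus), that of ZFAS1 at chr20:49278642-49278670 (plus), that of SNHG5 at chr6:85678705-85678733 (minus), that of SNHG16 at chr17:76557769-76557797 (plus) and that of SNHG12 at chr1:28581845-28581873 (minus). A match to these letters in an annotation is a description and does not show where transcription started in these cells.

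Each library held between 4999521 and 19704493 counted reads, the fewest in replicate 1 of the vehicle control. The mitochondrial rRNA gene MT-RNR2 took 20.2% to 27.1% of the reads. Of the epithelial markers examined, 7 of 8 were at 1 CPM (reads of a gene per 1000000 reads of its library, after TMM scaling) or more in all libraries. Their summed level was 1375 to 1600 CPM in the control, 1514 to 1539 CPM in the vehicle control and 1168 to 1311 CPM with P4, where every library was below those of both other groups. Of 7 stromal markers, 3 reached that level throughout (COL1A1, COL1A2 and COL3A1). Their sum was 418 to 622 CPM in the control, 344 to 360 CPM in the vehicle control and 127 to 180 CPM with P4, and the range over all libraries was 127 to 645 CPM. DCN, PDGFRB and PDGFRA, which define stromal cells, were at most 1.41 CPM. Leukocyte markers summed to at most 1.61 CPM and endothelial markers to at most 1.75 CPM. The part of these marker differences in the results below was not tested.

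In the control libraries, the 10 transcripts together made up 942 ± 35.3 CPM (SD, n = 3). Per length, GAS5 was highest at 67.5 ± 2.61 RPKM (reads per kilobase of annotated exon, normalized for depth), followed by SNHG8 at 50.1 ± 1.78 and SNHG5 at 48.6 ± 2.07 RPKM, which did not differ beyond their spread. SNHG1 came next at 39.8 ± 2.40 RPKM, and the libraries of SNHG6 at 34.0 ± 5.80 and SNHG16 at 33.3 ± 2.92 RPKM overlapped with each other. ZFAS1 was at 19.5 ± 0.912, SNHG15 at 11.6 ± 0.548, EPB41L4A-AS1 at 9.41 ± 0.337 and SNHG12 at 6.24 ± 1.07 RPKM. For 8 of the 10 genes the exon lengths come from another version of the gene model than the one counted, so the levels per length are approximate. With P4 the order of the lower ranks differed, since ZFAS1 was at 34.1 ± 3.49 RPKM and SNHG16 at 22.8 ± 1.29 RPKM.

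**Figure D1:**
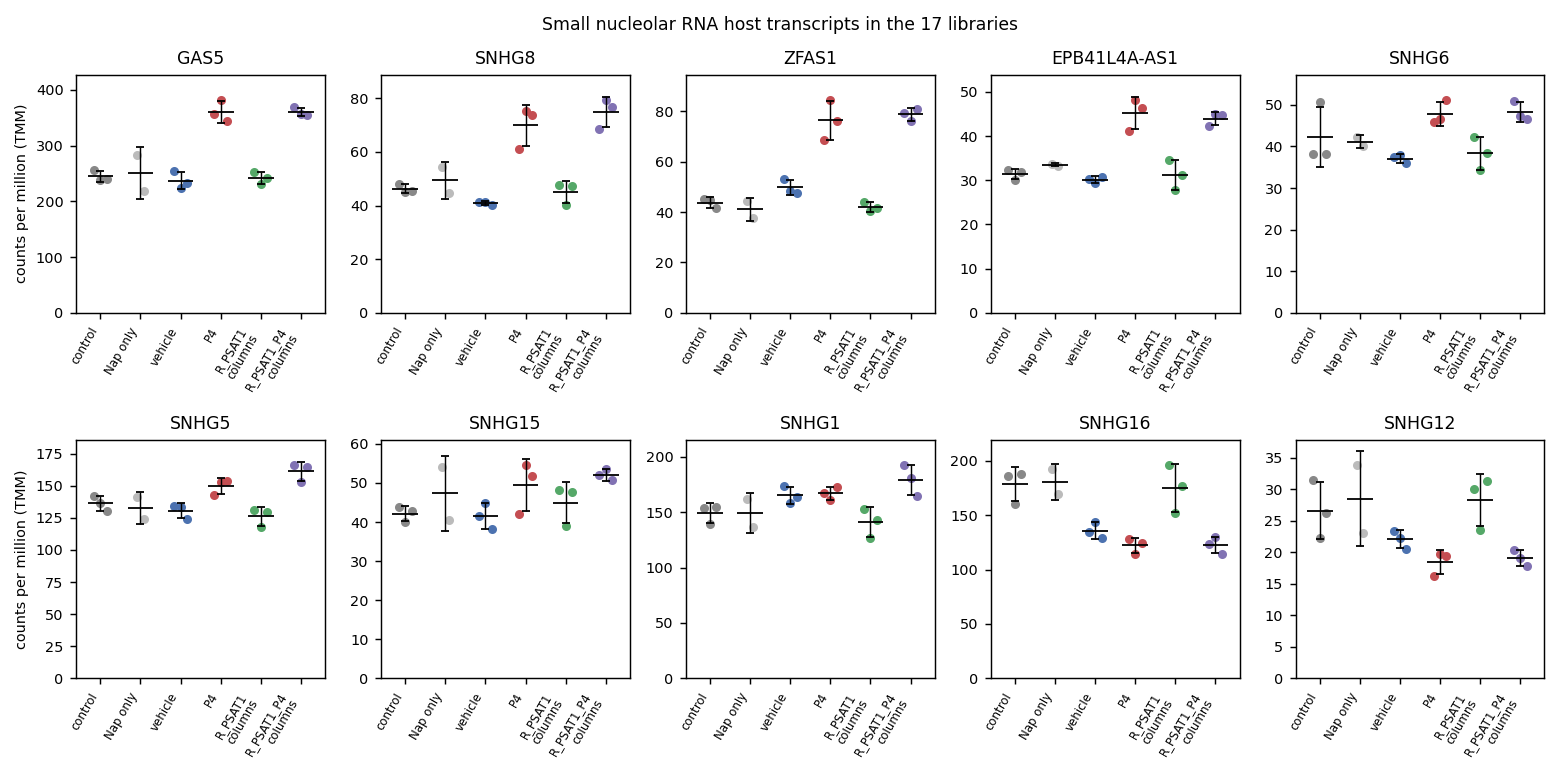
TMM-normalized CPM (y axis, from 0) of each of the 10 host transcripts in each library, by group. Points are libraries, horizontal lines are group means and bars are SD (n = 3, or 2 for Nap only). In the P4 group and the R_PSAT1_P4 columns, every library lay above every control library for GAS5, SNHG8, ZFAS1, EPB41L4A-AS1, SNHG1 and SNHG5. For SNHG16 and SNHG12, every library of both sets lay below every control library. SNHG1 and SNHG5 were not called for P4 against the control. The share of all genes separated from the control in this way was not computed.

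The first comparison asked how P4 treated cells differed from the vehicle control. Of the 10 transcripts, 6 were higher with P4 at the threshold used throughout, a Benjamini-Hochberg adjusted p under 0.05 over the 16540 genes tested by the quasi-likelihood method of edgeR, namely SNHG8, ZFAS1, GAS5, EPB41L4A-AS1, SNHG6 and SNHG5, and none was lower. The increases were between 1.14 and 1.70-fold. The background to this count is wide, because 8774 genes (53.0%) were called, 26.6% of all genes tested as higher and 26.5% as lower. The median log2 fold change of the 10 was 0.30, against -0.01 over all genes tested. The libraries of the groups did not overlap for 8 of the 10, and for 60.3% of all genes tested. In these bulk samples, fewer cells that express a transcript and less of it per cell cannot be told apart.

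Among the box C/D hosts, GAS5, named for its accumulation in growth-arrested cells and known for an RNA that can bind the DNA-binding domain of the glucocorticoid receptor, was counted at 254, 225 and 233 CPM in the vehicle control and at 356, 382 and 344 CPM with P4. All 3 P4 libraries stood above all of the vehicle libraries. The log2 fold change was 0.59 ± 0.07 (SE), a 1.51-fold increase (adjusted p = 1.7e-05). ZFAS1, transcribed divergently from the promoter region of the zinc finger gene ZNFX1, was at 53.3, 48.5 and 47.5 CPM in the vehicle control and 68.8, 84.4 and 76.0 CPM with P4. The groups stood apart, and the log2 fold change was 0.61 ± 0.09 (adjusted p = 9.0e-05).

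SNHG6, the host of SNORD87, was at 37.4, 37.9 and 36.0 CPM in the vehicle control and 46.0, 46.5 and 51.2 CPM with P4. The groups did not overlap and the log2 fold change was 0.36 ± 0.08 (adjusted p = 0.0026). SNHG5, the host of the U50 snoRNAs, was at 135, 133 and 124 CPM in the vehicle control and at 143, 153 and 154 CPM with P4. The groups lay next to each other without overlap, the log2 fold change was 0.19 ± 0.06, and its adjusted p was 0.028. This call depended on single libraries, since the adjusted p was 0.070 without vehicle control replicate 2, 0.157 without vehicle control replicate 3 and 0.105 without P4 replicate 3, and it was 0.195 with upper-quartile normalization.

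The other box C/D hosts were not called. SNHG1, which carries a cluster of snoRNAs between neighbouring exons, was at 174, 158 and 164 CPM in the vehicle control and at 167, 161 and 173 CPM with P4. The groups overlapped, and the log2 fold change was 0.01, with a nominal 95% interval from -0.12 to 0.13. SNHG16, the host of the SNORD1 snoRNAs, was at 135, 144 and 129 CPM in the vehicle control and 128, 115 and 124 CPM with P4. The P4 libraries were the lower ones in this case, without overlap. The log2 fold change was -0.17 ± 0.07 and missed the threshold (adjusted p = 0.066), but it passed without P4 replicate 1 (-0.20, adjusted p = 0.013) and with upper-quartile normalization (-0.25, adjusted p = 0.011).

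Among the H/ACA hosts, SNHG8, the host of SNORA24, had the largest log2 fold change of the 10 in this comparison. It was at 41.2, 41.5 and 40.1 CPM in the vehicle control and at 61.2, 75.2 and 73.6 CPM with P4, far apart, with a log2 fold change of 0.76 ± 0.09 (1.70-fold, adjusted p = 1.7e-05). EPB41L4A-AS1, the host of SNORA13, was at 30.3, 29.3 and 30.8 CPM in the vehicle control and 41.1, 48.1 and 46.3 CPM with P4. Again the groups stood apart, and the log2 fold change was 0.57 ± 0.09 (adjusted p = 1.5e-04). SNHG15, the host of SNORA9, was at 41.6, 44.9 and 38.1 CPM in the vehicle control and 42.0, 54.5 and 51.8 CPM with P4. P4 replicate 1 lay within the range of the vehicle control, and the log2 fold change of 0.24 ± 0.10 was not called (adjusted p = 0.070), although it was without that library (0.35, adjusted p = 0.0011).

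SNHG12, with both kinds of snoRNA, was at 23.4, 22.2 and 20.5 CPM in the vehicle control and at 16.3, 19.8 and 19.4 CPM with P4. The P4 libraries were lower without overlap, but the log2 fold change of -0.25 ± 0.11 was not called (adjusted p = 0.064). With upper-quartile normalization it was -0.34 (adjusted p = 0.016). That normalization placed the median log2 fold change of all genes at -0.10, so the values of SNHG12 and SNHG16 relative to that median were closer to those of the main fit. The 5 increases other than that of SNHG5 were called under each of the 14 alternative settings.

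The vehicle control was compared with the control because the vehicle itself could change these transcripts. Of the 10, only SNHG16 was called, and it was lower in the vehicle control. SNHG16 was at 187, 160 and 188 CPM in the control and at 135, 144 and 129 CPM in the vehicle control, with no overlap and a log2 fold change of -0.39 ± 0.08 (adjusted p = 0.0011). For comparison, 22.6% of 16673 genes were called, 11.9% as higher and 10.7% as lower. SNHG12 had a log2 fold change of -0.28 ± 0.12 and was not called (adjusted p = 0.083), and single controls decided its size. It passed without control replicate 2 (-0.41, adjusted p = 0.0034), whose 22.3 CPM was the lowest of the control values of 31.4, 22.3 and 26.2 CPM, and it was -0.14 (adjusted p = 0.388) without control replicate 1, the highest of them. The other 8 had log2 fold changes between -0.20 for SNHG6 and 0.17 for ZFAS1, and that of SNHG6 was -0.045 without control replicate 2. Their intervals lay within -0.54 to 0.33, the limits over all 10 transcripts. Though not called, SNHG8 (-0.18, adjusted p = 0.111) and SNHG6 lay below every control library in all vehicle libraries. ZFAS1 (0.17, adjusted p = 0.128) and SNHG1 lay above every control library. The share of all genes separated in this way was not computed for this comparison. The number of genes called was 2038 without vehicle control replicate 2 and 1908 without replicate 3, and SNHG16 was called in both fits.

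Against the control, P4 treated cells showed changes in both directions. ZFAS1, SNHG8, GAS5 and EPB41L4A-AS1 were higher and SNHG16 and SNHG12 were lower, so that 6 of 10 were called, against 54.8% of 16620 genes (26.8% higher, 28.0% lower). ZFAS1 was at 45.1, 44.8 and 41.4 CPM in the control, and all P4 libraries lay above, with a log2 fold change of 0.78 ± 0.10 (1.72-fold, adjusted p = 3.7e-06). SNHG8 was at 48.1, 45.0 and 45.6 CPM in the control, again below each P4 library (log2 fold change 0.58 ± 0.10, adjusted p = 9.9e-05). GAS5 was at 256, 238 and 241 CPM in the control, and its log2 fold change was 0.54 ± 0.09 (adjusted p = 7.6e-05). EPB41L4A-AS1 was at 32.3, 30.2 and 31.9 CPM, and its change was 0.50 ± 0.10 (adjusted p = 4.2e-04). These 4 transcripts were above the control in all 3 P4 libraries. So were SNHG1 (adjusted p = 0.195) and SNHG5 (adjusted p = 0.292), which were not called. The share of all genes separated in this way was not computed against the control. For P4 and the vehicle control it was 60.3%.

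The 2 decreases against the control were of similar size. SNHG16 had a log2 fold change of -0.57 ± 0.10 (adjusted p = 8.1e-05), with the 3 P4 libraries below the lowest control library. SNHG12 had -0.55 ± 0.13 (adjusted p = 0.0021), also without overlap. Both calls stood under all 14 alternative settings. The mean of the vehicle control lay between those of the control and of P4 for both transcripts, at 136 ± 7.66 CPM for SNHG16 and 22.0 ± 1.43 CPM for SNHG12. SNHG15, SNHG6, SNHG1 and SNHG5 were not called, with log2 fold changes from 0.11 to 0.21. SNHG6 was called without control replicate 2 (0.30, adjusted p = 0.029), the library with 50.7 CPM beside 38.2 CPM in each of the other controls, and SNHG15 without P4 replicate 1 (0.32, adjusted p = 0.0086). Since the control and vehicle libraries enter more than one of these comparisons, the comparisons are not independent of each other.

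**Figure D2:**
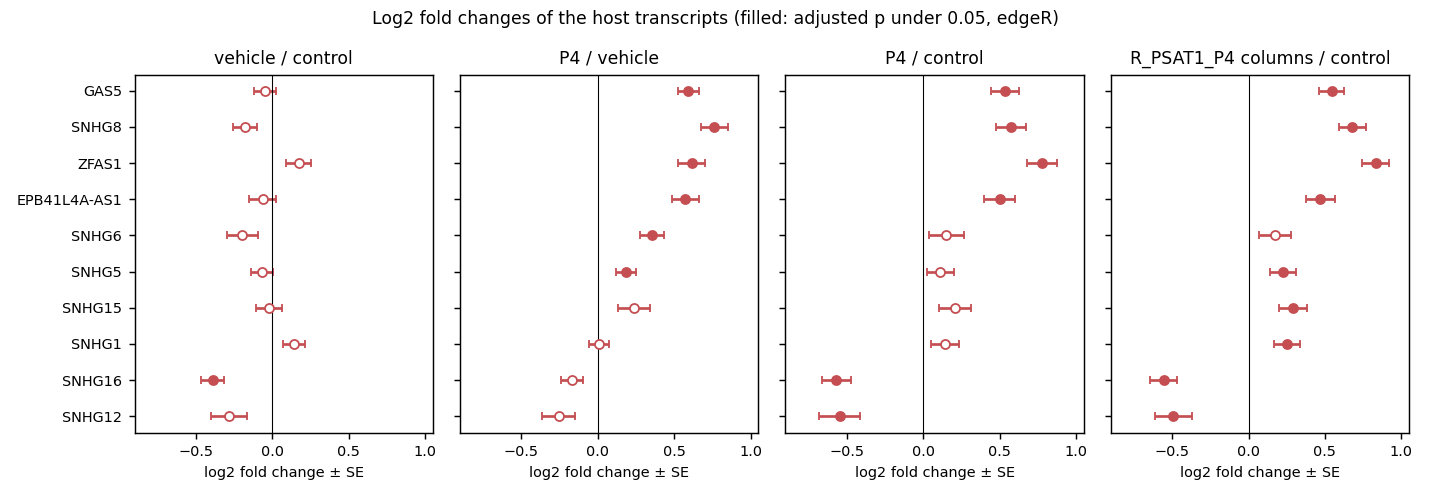
Log2 fold change (x axis, with SE) of the 10 host transcripts in 4 comparisons, from edgeR fits of the groups named above each panel. Filled points passed an adjusted p under 0.05. SNHG16 is the only filled point for the vehicle control, 6 points are filled to the right for P4 against the vehicle control, and SNHG16 and SNHG12 are filled to the left in both comparisons on the right.

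The ratio of 2 transcripts within a library does not depend on how the libraries are scaled to each other. The ratio of ZFAS1 to SNHG16 reads was 0.247 ± 0.0302 in the control, 0.227 ± 0.00449 in the Nap only group, 0.367 ± 0.0297 in the vehicle control and 0.629 ± 0.101 with P4. The lowest P4 library, at 0.538, was above the highest vehicle library, at 0.396. The ratio of SNHG8 to SNHG16 was 0.260 ± 0.0195 in the control, 0.302 ± 0.0123 in the vehicle control and 0.576 ± 0.0903 with P4. The ratio of GAS5 to SNHG1 was 1.64 ± 0.0823 in the control, 1.44 ± 0.0226 in the vehicle control and 2.16 ± 0.192 with P4. In the R_PSAT1_P4 columns, these ratios were 0.645 ± 0.0604, 0.612 ± 0.0583 and 2.02 ± 0.123, and in the R_PSAT1 columns 0.242 ± 0.0209, 0.258 ± 0.0135 and 1.72 ± 0.0918. The pairs were chosen after the values were known, so the ratios are given without a test.

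Of the reads on all 10 transcripts, GAS5 took 26.6% ± 1.10 in the vehicle control and 32.6% ± 1.44 with P4. SNHG16 took 18.9% ± 1.18 in the control, 15.3% ± 0.909 in the vehicle control and 11.1% ± 0.958 with P4. SNHG5 took 13.9% to 15.0% in the control, 14.3% to 15.1% in the vehicle control and a lower 13.4% to 13.8% with P4. The sum of the 10 was 891 ± 30.9 CPM in the vehicle control and 1108 ± 35.4 CPM with P4.

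**Figure D3:**
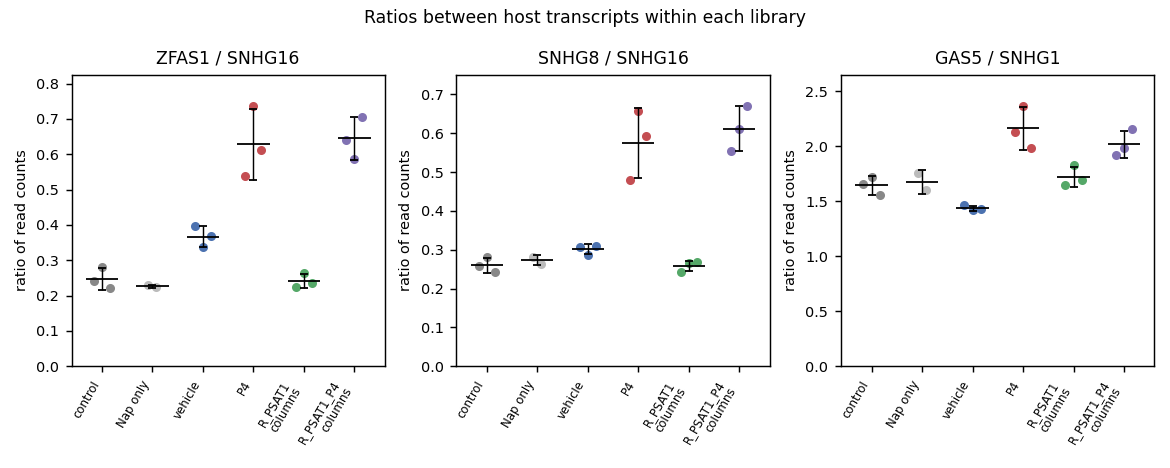
Ratios of read counts between host transcripts in each library (y axes, from 0), by group. Points are libraries, lines are group means and bars are SD. For ZFAS1 to SNHG16, the P4 libraries and the R_PSAT1_P4 columns lay between 0.538 and 0.737, above the vehicle control libraries at 0.337 to 0.396. For SNHG8 to SNHG16 too, both sets lay above every vehicle library. For GAS5 to SNHG1, the vehicle libraries at 1.42 to 1.46 were below those of every other group, with the control at 1.55 to 1.71.

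In the libraries that received Nap only, none of the 10 transcripts was called against the control. No gene at all was called (0% of 17166) by edgeR, while 217 genes had an unadjusted p under 0.05 and DESeq2 called 1. Member log2 fold changes were between -0.09 for ZFAS1 and 0.17 for SNHG15, and their nominal 95% intervals lay within -0.29 to 0.44. The largest of them in size, 0.17, became 0.36 without Nap only replicate 2. GAS5 was at 284 and 218 CPM in the 2 libraries, on both sides of the control values.

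For the libraries with contradictory labels, the R_PSAT1 columns were close to the control and the R_PSAT1_P4 columns were not. In the R_PSAT1 columns, 0 of the 10 transcripts and 0% of 17214 genes were called against the control, with 1004 genes at an unadjusted p under 0.05 and none by DESeq2. The member log2 fold changes were from -0.13 for SNHG6 to 0.11 for SNHG15, and their intervals lay within -0.35 to 0.35. The largest in size over the members, 0.13 for SNHG6, was 0.24 for SNHG12 without control replicate 1, and up to 0.22 without any other single library. GAS5 was at 253, 231 and 242 CPM there, within or just below its range in the control. SNHG16 was at 196, 152 and 177 CPM, on both sides of the control range.

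In the R_PSAT1_P4 columns, 9 of 10 transcripts were called against the control, 7 as higher and 2 as lower. Of the 16209 genes tested, 60.2% were called, 30.0% as higher and 30.2% as lower. ZFAS1 was at 79.2, 76.1 and 80.9 CPM, above each control library, with a log2 fold change of 0.83 ± 0.09 (adjusted p = 1.3e-09). SNHG8 was at 68.4, 79.3 and 76.8 CPM (log2 fold change 0.68 ± 0.09, adjusted p = 9.0e-08) and GAS5 at 369, 358 and 355 CPM (0.54 ± 0.08, adjusted p = 1.6e-06). EPB41L4A-AS1 was at 42.2, 45.1 and 44.7 CPM (0.47 ± 0.09, adjusted p = 7.6e-05). The libraries did not overlap with the control for 9 of the 10 transcripts, these 4 among them, and overlapped for SNHG6. The share of all genes without such an overlap was not computed for this comparison.

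SNHG15 at 0.29 ± 0.09 (adjusted p = 0.0062), SNHG1 at 0.25 ± 0.09 (adjusted p = 0.013) and SNHG5 at 0.23 ± 0.08 (adjusted p = 0.020) were the smaller increases on the log2 scale. With upper-quartile normalization, their adjusted p was 0.054, 0.097 and 0.153. SNHG1 was not called without R_PSAT1_P4 columns replicate 1 (adjusted p = 0.081) or replicate 2 (adjusted p = 0.051), and SNHG5 without replicate 1 (adjusted p = 0.066) or replicate 3 (adjusted p = 0.062). SNHG6 was not called (0.17 ± 0.10, adjusted p = 0.154), except without control replicate 2 (0.32, adjusted p = 0.0055). SNHG16 was at 123, 130 and 115 CPM and fell by 0.55 on the log2 scale (SE 0.09, adjusted p = 2.8e-06). SNHG12 was at 20.4, 19.1 and 17.8 CPM and fell by 0.49 (SE 0.12, adjusted p = 8.5e-04), with all 3 libraries below the control.

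The R_PSAT1_P4 columns were also compared with the R_PSAT1 columns, a comparison that shares no library with the P4 and vehicle groups. Here 9 of the 10 transcripts were called, 7 as higher and 2 as lower, against 62.3% of 16586 genes (30.7% higher, 31.6% lower). The log2 fold changes of the increases ran from 0.31 ± 0.08 for SNHG6 (adjusted p = 0.0038) to 0.88 ± 0.07 for ZFAS1 (adjusted p = 1.9e-09), with SNHG1 at 0.32 ± 0.07 (adjusted p = 8.5e-04) and SNHG5 at 0.33 ± 0.06 (adjusted p = 2.1e-04). SNHG12 fell by 0.59 (SE 0.11, adjusted p = 1.2e-04) and SNHG16 by 0.54 (SE 0.08, adjusted p = 9.0e-06). SNHG15 had a log2 fold change of 0.19 ± 0.08 (adjusted p = 0.061), and was called without R_PSAT1 columns replicate 1 (0.25, adjusted p = 0.027) or replicate 3 (0.24, adjusted p = 0.047) and with RLE normalization.

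Set against the P4 group, the R_PSAT1_P4 columns showed no call among the 10 transcripts and none among 15621 genes (0%), with 199 genes at an unadjusted p under 0.05 and none by DESeq2. The log2 fold changes were from -0.05 for EPB41L4A-AS1 to 0.09 for SNHG5, and the nominal 95% intervals lay within -0.21 to 0.27. The libraries of both sets overlapped for each of the 10, but the share of all genes with such an overlap was not computed. Between the R_PSAT1 columns and the P4 group, 9 of 10 were called, 2 as higher (SNHG12 and SNHG16) and 7 as lower, against 57.1% of 16882 genes (28.8% higher, 28.3% lower). ZFAS1 had the largest difference, lower in the R_PSAT1 columns by a log2 fold change of -0.84 ± 0.09 (adjusted p = 4.2e-06). SNHG1, SNHG5 and SNHG6 were the smaller of the 7. Only 4 of the 7 remained called as lower without R_PSAT1 columns replicate 2, without P4 replicate 3 or with upper-quartile normalization. Without R_PSAT1 columns replicate 3, SNHG1 was not called (adjusted p = 0.072), and without P4 replicate 1 SNHG15 was called as well (-0.23, adjusted p = 0.040).

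The libraries were made from total RNA and without a selection for small RNAs. In the annotation, 23 snoRNA genes lie on the same strand within 9 of the hosts, and those of GAS5 were not analysed here. At 18 of them no read was counted in any of the 17 libraries, and all 18 overlap an annotated exon of their host. The 5 with reads, 1016 reads in all, overlap no host exon. These were SNORD99 in SNHG12, SNORD12C and SNORD12B in ZFAS1, SNORD1B in SNHG16 and SNORA13 in EPB41L4A-AS1. Reads of a snoRNA and of the host intron around it cannot be told apart.

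Of these, 3 passed the filter for P4 against the vehicle control. SNORD99 had 6, 12 and 13 reads in the vehicle libraries and 3, 4 and 7 with P4. Its log2 fold change was -1.32 ± 0.40 (adjusted p = 0.014), while its host SNHG12 had -0.25. SNORD99 passed the filter only through its counts in the vehicle libraries, and its reads with P4 were close to the floor. It did not pass the filter for P4 against the control, which had 17, 13 and 11 reads, and was not tested there. SNORD12C had 14, 31 and 37 reads in the vehicle libraries and 24, 14 and 31 with P4, and was not called (-0.44 ± 0.28, adjusted p = 0.208), while its host ZFAS1 rose. SNORA13 had 3, 11 and 16 reads in the vehicle libraries and 8, 12 and 10 with P4 and was not called either (-0.17 ± 0.37, adjusted p = 0.712). SNORD12B had 1, 3 and 3 reads in the vehicle libraries and none with P4, where a count of 0 allows up to 3 reads a library, so no fold is given. The standard errors of these 3 log2 fold changes, 0.28 to 0.40, were larger than those of the hosts, which were at most 0.11.

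Several hosts share a promoter region with a gene on the other strand, and the strand setting of the counting is not given in the sources used here, so reads of overlapping partners may not be separated. SLC3A2, the heavy chain of amino acid transporters, begins 187 bases from SNHG1 on the opposite strand. It was at 179 ± 6.65 CPM in the vehicle control and 269 ± 9.91 CPM with P4, a log2 fold change of 0.58 ± 0.06 (adjusted p = 9.9e-06), beside 0.01 for SNHG1. ZNFX1, which overlaps ZFAS1, was at 30.2 ± 1.40 CPM in the vehicle control and 25.3 ± 0.486 CPM with P4. It was lower with P4 (-0.27 ± 0.09, adjusted p = 0.020), opposite to ZFAS1, but against the control its log2 fold change was 0.04 and was not called.

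TRNAU1AP, which overlaps SNHG12 and encodes a factor that binds the selenocysteine tRNA, was lower with P4 (-0.25 ± 0.09, adjusted p = 0.039), as were its levels against the control (-0.30 ± 0.11, adjusted p = 0.027). ZBTB37, a zinc finger gene that overlaps GAS5, was at 56.3 ± 4.77 and 59.1 ± 2.82 CPM and was not called (0.07 ± 0.08, adjusted p = 0.506). EPB41L4A, the partner of EPB41L4A-AS1 (0.21 ± 0.11, adjusted p = 0.108), and PRSS12, next to SNHG8 (0.18 ± 0.13, adjusted p = 0.247), were not called against the vehicle control. Against the control both were higher with P4, EPB41L4A by a log2 fold change of 0.39 ± 0.11 (adjusted p = 0.0061) and PRSS12 by 0.38 ± 0.14 (adjusted p = 0.026). ST6GALNAC2, a sialyltransferase gene 30 bases from SNHG16, was higher with P4 (0.44 ± 0.17, adjusted p = 0.044) at 5.67 ± 1.07 and 7.53 ± 0.559 CPM. AC015802.6, annotated as protein-coding and overlapping SNHG16 on the other strand, was lower (-0.72 ± 0.27, adjusted p = 0.041) at 2.48 ± 0.178 and 1.57 ± 0.447 CPM, and was not called against the control (0.16 ± 0.30, adjusted p = 0.671). None of these partners was tested for a difference from its host.

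Other non-coding snoRNA hosts were not all in the same direction as the 10. Of 16 tested with P4 against the vehicle control, 3 were higher and 7 lower, with a median log2 fold change of -0.38, beside 26.6% and 26.5% of all genes tested in that comparison. LRRC75A-AS1, a TOP-type host of box C/D snoRNAs, was at 351 ± 5.63 CPM in the vehicle control and 568 ± 10.0 CPM with P4 (0.68 ± 0.06, adjusted p = 1.3e-06). SNHG7 was at 24.6 ± 2.89 and 40.5 ± 4.58 CPM (0.73 ± 0.11, adjusted p = 1.4e-04). SNHG4 was at 33.3 ± 2.91 and 14.4 ± 1.20 CPM (-1.21 ± 0.11, adjusted p = 2.0e-06), and SNHG14, a long imprinted host, at 654 ± 38.8 and 440 ± 82.1 CPM (-0.58 ± 0.11, adjusted p = 9.9e-04). The reads of SNHG4, which lies within a coding gene's region, may not be separated from those of its neighbour.

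Among 47 protein-coding snoRNA hosts, 23 were higher and 9 lower with P4 than in the vehicle control (median 0.17), beside 26.6% and 26.5% of all genes. Against the control 6 were higher and 9 lower (median -0.0001), beside 26.8% and 28.0% of all genes. In the vehicle control itself, 22 of the 47 were lower than in the control and 4 higher (median -0.21), beside 10.7% and 11.9% of all genes. HSPA9, a mitochondrial chaperone, was higher (1.43 ± 0.09, adjusted p = 9.2e-08), as was the elongation factor EEF2 (0.55 ± 0.06, adjusted p = 1.4e-05). HSPA8, the constitutive cytosolic chaperone, was lower (-1.49 ± 0.07, adjusted p = 1.7e-08), as was RCC1, the exchange factor of RAN, whose annotation adjoins the host SNHG3 (-1.19 ± 0.09, adjusted p = 4.6e-07).

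Of 19 translation factors and other genes with TOP mRNAs, 12 were higher and 1 lower with P4 than in the vehicle control (median 0.32), where the shares over all genes were 26.6% and 26.5%. Against the control 6 were higher and 3 lower (median 0.08), where they were 26.8% and 28.0%. In the vehicle control 11 were lower and 2 higher than in the control (median -0.24), where they were 10.7% and 11.9%. By adjusted p, the first increases were EEF2 and VIM, which encodes vimentin (0.75 ± 0.08, adjusted p = 1.4e-05), and the decrease was HNRNPA1 (-0.56 ± 0.08, adjusted p = 7.3e-05). Of the 10 hosts, 4 were higher and 2 lower against the control, beside 26.8% and 28.0% of all genes. Their median was 0.18 there and 0.30 against the vehicle control. The 4 higher ones, GAS5, SNHG8, ZFAS1 and EPB41L4A-AS1, had log2 fold changes of 0.50 to 0.78 against the control, but they were picked by that call.

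Of 26 mRNAs known as targets of NMD, 15 were higher and 4 lower with P4 than in the vehicle control, with a median log2 fold change of 0.43, beside 26.6% and 26.5% of all genes. Against the control 12 were higher and 4 lower (median 0.23), beside 26.8% and 28.0%. The increases with the smallest adjusted p were DDIT3 (3.95 ± 0.18, adjusted p = 1.4e-07) and GADD45A (3.42 ± 0.19, adjusted p = 9.2e-08). Both are also known as targets of stress-induced transcription, as are others of the 15, such as ATF3 (4.21), ASNS (1.91) and ATF5 (1.42). Besides the 4 that were lower, 7 of the list were not called, among them UPF2 (-0.02) and SMG5 (-0.02). How far NMD or such transcription accounts for the list median was not tested. SRSF2 (-0.81 ± 0.08, adjusted p = 3.4e-06) and SRSF3 (-0.45 ± 0.09, adjusted p = 9.0e-04), splicing factors that limit their own mRNA through NMD, were lower. Of the 19 factors of the NMD pathway, 4 were higher and 5 lower (median -0.02), beside 26.6% and 26.5% of all genes. NBAS was higher (1.29 ± 0.11, adjusted p = 1.1e-06), as was CASC3 of the exon junction complex (0.43 ± 0.07, adjusted p = 3.4e-04). RBM8A (-0.89 ± 0.07, adjusted p = 1.4e-06) and EIF4A3 (-0.45 ± 0.08, adjusted p = 3.2e-04), which belong to the same complex, were lower.

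For P4 against the vehicle control, 19 proteins that form or assemble snoRNPs, the particles of snoRNAs and their proteins, were examined. Of these, 3 were higher and 7 lower (median 0.04), beside 26.6% and 26.5% of all genes. TGS1, which modifies the cap of snoRNAs and snRNAs, was higher (0.61 ± 0.09, adjusted p = 1.6e-04), as was RRP9 (0.39 ± 0.12, adjusted p = 0.013). NOP56, a core protein of box C/D particles (-0.42 ± 0.06, adjusted p = 1.1e-04), and the assembly ATPase RUVBL1 (-0.39 ± 0.10, adjusted p = 0.0061) were lower. Of 18 subunits of the RNA exosome and other decay enzymes, 8 were higher and 4 lower (median 0.13), beside the same shares. By adjusted p, the first increases were EXOSC8 (0.80 ± 0.07, adjusted p = 2.9e-06) and EXOSC1 (0.59 ± 0.10, adjusted p = 2.5e-04) and the first decreases EXOSC2 (-0.47 ± 0.08, adjusted p = 3.1e-04) and the decapping enzyme DCP2 (-0.25 ± 0.07, adjusted p = 0.0078). Against the control, 3 of the snoRNP proteins were higher with P4 and 8 lower (median -0.21). Of the decay enzymes, 4 were higher and 7 lower there (median -0.09), beside 26.8% and 28.0% of all genes. In the vehicle control itself, 6 snoRNP proteins and 5 decay enzymes were lower than in the control and 0 were higher. Over all genes, 10.7% were lower and 11.9% higher in that comparison. The lists were not tested as sets, and some genes stand in more than one of them.

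**Figure D4:**
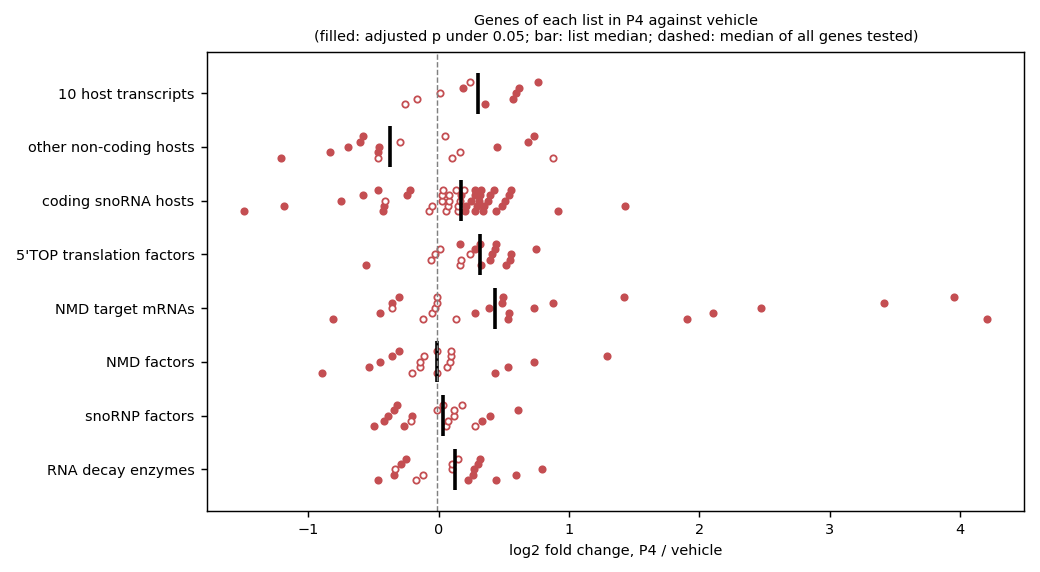
Log2 fold change of P4 against the vehicle control (x axis) for each tested gene of 8 lists (rows). Filled points passed an adjusted p under 0.05, black bars are list medians and the dashed line is the median of all genes tested (-0.01). The bar of the 10 hosts is at 0.30, that of the other non-coding hosts at -0.38 and that of the NMD target mRNAs at 0.43.

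Over the 17 libraries, 8 of the 10 transcripts correlated positively with their mean profile (the mean of row-centred log2 CPM), with Pearson's r from 0.70 for SNHG1 to 0.95 for SNHG8. SNHG12 (r = -0.30) and SNHG16 (r = -0.43) did not, and these were similar to each other (r = 0.89). The mean profile includes each transcript itself, so part of each r with it is built in. EPB41L4A-AS1 and SNHG8 were the most similar pair (r = 0.97). Among 11671 other genes with a mean of at least 5 CPM, the 6 with the most similar profile were NSMAF (r = 0.96), SLC35F2 and HSPD1 (both r = 0.95), QRSL1 (r = 0.95), COPS3 (r = 0.94) and RPF1 (r = 0.94). The points share libraries and groups with the fold changes above, so these correlations are a description and were not tested.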

How the data were processed

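RNA-seq libraries (n = 17) of Ishikawa cells were analysed in 6 groups, taken from the column names where titles and column names disagreed. Single-end reads had been adapter-trimmed (Cutadapt), quality-filtered and mapped by Subread with only unique alignments kept. The authors deposited raw featureCounts read counts for the genes of GENCODE 31, without any scaling. Tool versions and the strand setting are not given in the sources used here. The number of columns not used was 0.

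Counts were fitted with edgeR 4.0.16 in R 4.3.3 (TMM, filterByExpr with a minimum count of 10, robust quasi-likelihood test, Benjamini-Hochberg adjustment over all genes tested), with only the groups compared in each fit, and genes were called at an adjusted p under 0.05. The test was checked on simulated data. CPM values use TMM factors over all 17 libraries. Intervals are the log2 fold change ± 1.96 SE and reflect the spread between libraries, which the labels call biological replicates. They use a normal quantile, so they are narrower than the edgeR test implies and their 95% is nominal. For SNHG1 in the vehicle control against the control, the interval of 0.0020 to 0.28 left out 0, while the unadjusted p of edgeR was 0.059. Gene names and spans come from GENCODE 29 (GRCh38), which holds 43963 of the 60662 genes in the version counted and 14614 in another one. A table of names alone served 2064 genes and 21 stayed unnamed. Python 3.11.15 with pandas 2.3.3, numpy 2.4.6 and matplotlib 3.10.9 made the tables and plots.

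The 10 members and the gene lists were chosen with earlier results of these data known. From each other list and from the hosted snoRNAs, up to 2 genes called in each direction with the smallest adjusted p for P4 against the vehicle control were named, together with neighbours on the other strand and the 6 genes of most similar profile. Non-coding hosts were kept only where the annotation places a snoRNA within them (19 of 25 listed, 16 tested), and coding hosts likewise (47 of 50). Alternatives were DESeq2 1.42.0, normalization by RLE or by the upper quartile, dropping the filter or asking for 10 counts in each sample, 1 fit over all 6 groups, a block for the replicate number, and leaving out single replicates. A fit without the 50 most counted genes was added after seeing the data.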

Additional observations from a re-analysis of the deposited data

How the results depend on the processing

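Each comparison was refitted under 13 or 14 alternatives. The counts of genes and members called stayed within 1.5 times the main count in 232 instances and moved beyond it in 18. Where the main count was 0, the genes called were 3 (no filter), 1 (DESeq2) and 1 (all 6 groups in the fit) for Nap only against the control, 14 without a filter for the R_PSAT1 columns against the control and 1 without a filter for the R_PSAT1_P4 columns against P4. For the vehicle control against the control, 2 members were called without a filter, SNHG16 and SNHG12.

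With a replicate left out, the genes called ranged from 7083 to 9953 for P4 against the vehicle control, from 1908 to 3995 for the vehicle control against the control, from 7617 to 9709 for P4 against the control, from 0 to 5 for Nap only and from 0 to 5 for the R_PSAT1 columns against the control, and from 0 to 1 for the R_PSAT1_P4 columns against P4. The members called ranged from 5 to 8 for P4 against the vehicle control, from 1 to 2 for the vehicle control against the control, and from 7 to 10 for the R_PSAT1_P4 columns against the control.

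The replicate numbers of the labels were not taken as pairs in the main fits, and 2 or 3 pairs are too few to exclude a pairing. The correlation of deviations between same-numbered libraries was -0.04 to 0.05 for P4 and the vehicle control, and in no comparison with 3 pairs was it above 0.1 for every pair. It was 0.31 and 0.35 for Nap only and the control, with 2 pairs, and -0.05 to 0.40 for the R_PSAT1_P4 columns and P4. With the replicate block, 8934 genes and 7 members were called for P4 against the vehicle control, SNHG15 in addition (log2 fold change 0.25, adjusted p = 0.037). With the replicate block the genes called were 42 for Nap only, 29 for the R_PSAT1 columns against the control and 1 for the R_PSAT1_P4 columns against P4, none of them members.

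Signs changed only for log2 fold changes that were not called. SNHG1 in P4 against the vehicle control had -0.079 with upper-quartile normalization, -0.0011 with at least 10 counts in every sample, and -0.023 to 0.048 with a replicate left out. SNHG15 in the vehicle control against the control, -0.02 as reported, ranged from -0.092 to 0.042 with a replicate left out. Against the control, signs also changed under alternatives in the Nap only group, where SNHG15 (0.17) ranged from -0.048 to 0.36 and SNHG12 (0.10) from -0.195 to 0.35, and in the R_PSAT1 columns, where SNHG6 (-0.13) reached 0.021 and SNHG12 (0.10) reached -0.016. Of the other log2 fold changes of members, 22 lost and 15 gained a call under an alternative, as given with each transcript where a library decided it. In the comparison of the R_PSAT1_P4 with the R_PSAT1 columns, upper-quartile normalization placed the median of all genes tested at -0.12. Fits without the filter, which take in more genes of low count, had a median of -0.17 (edgeR with TMM) and -0.13 (DESeq2). Without a filter, 2 hosted snoRNAs were called for P4 against the vehicle control, SNORD99 and SNORD12B, the second at 1 to 3 reads a library against 0.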
